A study of Mus musculus with 6 samples.

Results

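The enzymes of glycolysis described here are Hk1, Hk2, Pfkl, Pfkp, Aldoa, Aldoc, Pgk1, Eno1, Eno2 and Ldha. They were chosen by name, as 10 of the 19613 genes in the deposited table, and all 10 were found under their current symbols. They include both isozymes measured for 4 steps (Hk1 and Hk2, Pfkl and Pfkp, Aldoa and Aldoc, Eno1 and Eno2), with Pgk1 and Ldha standing for later steps. The question asked of them was whether isozymes of 1 step moved together from culture to culture, and which other genes moved with them.

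Glycolysis splits glucose into pyruvate in the cytosol and yields ATP without oxygen. Hexokinases phosphorylate glucose, phosphofructokinases commit it to the pathway, aldolases split the sugar, phosphoglycerate kinase makes ATP, enolases form phosphoenolpyruvate and lactate dehydrogenase turns pyruvate into lactate. Most steps have several isozymes from separate genes. Hk1, Pfkl, Aldoa and Eno1 are used in many tissues, while Aldoc and Eno2 are known as the brain and neuronal forms, Pfkp as the platelet form and Hk2 as the inducible hexokinase. Many of these genes are also known targets of hypoxia-inducible factor (HIF), the transcription factor that is stabilised when oxygen is low.

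Affymetrix exon arrays for mouse were hybridised with RNA of 6 cultures of embryoid bodies, aggregates that contain spinal motor neurons and were grown with retinoic acid and a hedgehog agonist from HBG3 embryonic stem cells with an Hb9-eGFP reporter. Each culture had been kept for 24 h with 5% serum of male mice of the strain B6CBA-Tg(HDexon1)62Gpb/3J, a model of Huntington's disease that carries a human huntingtin fragment under the human promoter, drawn at 10 weeks of age before symptoms. The sample labels call this fluid plasma, whereas the series title and the methods call it serum. All 6 arrays form 1 group, named by the replicate numbers 2, 4, 5, 6, 7 and 8, and control arrays were not analysed here, so nothing below is a response to the serum. The stem cells came from 1 line, and nothing in the labels says which cultures shared a preparation, so the SD and the p-values measure only the spread between these samples.

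Intensities were analysed as log2. The background limit was 7.47, the level under which 95% of 1032 olfactory receptor genes lay, and genes with a higher mean are called above background. Neuron markers were above this limit for 11 of 11 measured genes and motor neuron markers for 7 of 7, against 2 of 7 pluripotency markers, 5 of 10 endoderm and mesoderm markers and 1 of 6 blood cell markers. Proliferation markers were above it for 7 of 7 genes, neural progenitor markers for 9 of 10 and astrocyte markers for 4 of 5. Over all genes the share was 65.2%. The arrays were close to each other, with r of 0.991 to 0.997 between any pair over all genes and median intensities of 296 to 311. In such mixed tissue, fewer cells of a type and less RNA per cell cannot be told apart.

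The promoters of 4 of the enzymes are printed first, because Pfkp, Aldoc and Eno2 turned out to move together over the arrays and Ldha held the most HIF-type motifs of any of the 10 genes. The windows run from 250 bases before to 50 bases after the start of transcription in RefSeq's annotation of GRCm38.p6, and are written 5′ to 3′ on the strand of the gene. Capitals mark ACGTG or GCGTG, the core letters that HIF is known to bind, read on both strands, so that CACGT and CACGC are matches of the other strand. Where an ACGTG match of 1 strand overlaps one of the other strand they read CACGTG, and each was counted.
Pfkp, chr13:6648722-6649021, minus strand: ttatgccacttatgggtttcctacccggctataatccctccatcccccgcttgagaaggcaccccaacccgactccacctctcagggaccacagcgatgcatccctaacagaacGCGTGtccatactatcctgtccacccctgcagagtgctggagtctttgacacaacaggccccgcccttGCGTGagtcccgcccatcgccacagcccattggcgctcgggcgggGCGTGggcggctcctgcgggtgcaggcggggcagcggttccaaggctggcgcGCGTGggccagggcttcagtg
Aldoc, chr11:78322823-78323122, plus strand: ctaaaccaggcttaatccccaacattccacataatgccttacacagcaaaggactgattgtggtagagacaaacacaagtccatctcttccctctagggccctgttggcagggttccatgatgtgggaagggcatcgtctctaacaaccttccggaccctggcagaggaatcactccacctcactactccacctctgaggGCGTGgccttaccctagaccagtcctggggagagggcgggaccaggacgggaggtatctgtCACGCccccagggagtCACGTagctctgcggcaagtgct
Eno2, chr6:124769624-124769923, minus strand: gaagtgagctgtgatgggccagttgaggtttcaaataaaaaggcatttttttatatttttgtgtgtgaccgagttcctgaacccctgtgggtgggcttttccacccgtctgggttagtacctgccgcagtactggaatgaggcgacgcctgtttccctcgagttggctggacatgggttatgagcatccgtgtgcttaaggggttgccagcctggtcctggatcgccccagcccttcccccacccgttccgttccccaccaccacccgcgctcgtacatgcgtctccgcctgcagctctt
Ldha, chr7:46845554-46845853, plus strand: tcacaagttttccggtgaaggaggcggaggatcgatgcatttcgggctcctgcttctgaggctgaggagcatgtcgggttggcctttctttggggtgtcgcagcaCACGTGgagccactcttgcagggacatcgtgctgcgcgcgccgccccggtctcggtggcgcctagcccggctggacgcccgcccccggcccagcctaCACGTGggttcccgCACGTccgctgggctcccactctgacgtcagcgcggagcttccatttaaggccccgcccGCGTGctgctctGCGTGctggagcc

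The Pfkp window held 4 matches, the Aldoc window 3, the Eno2 window 0 and the Ldha window 7. Of all 32851 promoter windows of this length in the same table, 8.93% held at least 3 matches, 3.86% at least 4 and 0.301% at least 7. Aldoc and Ldha each had another annotated start, whose windows held 1 and 2 matches. Over all starts, 9 of the 10 enzymes had a window with at least 1 match, against 46.7% of genes, and Eno2 was the exception. A match only says that these letters are in the window.

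All 10 enzymes were above background, on each of the 6 arrays, against 65.2% of the genes in the table. Since probes differ in how brightly they bind, the level of 1 gene is not set against that of another. What could be compared was how far each enzyme moved from array to array. The median SD of the 10 enzymes was 0.072 on the log2 scale, beside 0.076 over all genes above background. Because SD falls as level rises, each enzyme was also placed within its quartile of mean level, where 7 of the 10 lay over the median, against 50% of genes by construction.

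In each pair, 1 isozyme moved more than the other. Hk2, Pfkp, Aldoc and Eno2 had an SD over 0.1, which 31.2% of genes above background and 13.9% of those in the top quartile of level had, whereas Hk1, Pfkl, Aldoa and Eno1 did not. The limit of 0.1 falls between the SD of Eno1, at 0.074, and that of Aldoc, at 0.107. Eno1 was itself at the 68.9th percentile of SD in its quartile of level. Without replicate 2 the SD of Hk2 was 0.096 and that of Aldoc 0.071, and without replicate 7 that of Aldoc was 0.092, all under that limit. Hk2, the hexokinase known to be induced by growth signals and insulin, read 10.08, 9.83, 9.63, 9.79, 9.83 and 9.89 in replicates 2, 4, 5, 6, 7 and 8, a mean of 9.84 ± 0.147 (log2 intensity, SD, n = 6). It spanned 1.37-fold, with replicate 2 high, replicate 5 low and the other arrays between them.

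Hk1, the hexokinase that most cells use at a steady level, ranged only from 9.41 in replicate 5 to 9.59 in replicate 2, with a mean of 9.49 ± 0.070. Its SD was at the 51.6th percentile of its quartile of level, and that of Hk2 at the 93.0th. Both hexokinases therefore had the same highest and the same lowest array.

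Pfkp read 11.19, 11.11, 10.90, 10.97, 10.76 and 11.003 in the same order of arrays (10.99 ± 0.153) and Pfkl 10.62, 10.60, 10.59, 10.63, 10.49 and 10.67 (10.60 ± 0.060). Both phosphofructokinases were lowest in replicate 7. Pfkp, at the 96.2nd percentile of SD, spanned 1.35-fold, against 1.13-fold for Pfkl. Its SD was the largest of the 10, but without replicate 7 it was 0.115 and that of Hk2, at 0.164, was larger.

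Aldoc read 10.23, 10.08, 9.99, 10.04, 9.92 and 10.09 (10.06 ± 0.107) and Aldoa 13.01, 13.01, 12.99, 12.99, 12.90 and 13.04 (12.99 ± 0.047). Aldoa stayed within 0.05 of 13.01 on the other 5 arrays and was lower in replicate 7. The retrogene copies of aldolase A on the same arrays were dimmer, with Aldoart1 at 8.29 ± 0.16 and Aldoart2 at 7.34 ± 0.26, the latter below background. Aldoa, Pgk1, Eno1 and Ldha have near-identical retrocopies in the mouse genome whose signal the probes may share, so their values are uncertain to that extent.

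Eno2, the neuron-specific enolase, read 11.03, 10.83, 10.76, 10.81, 10.63 and 10.92 (10.83 ± 0.136), highest in replicate 2 and lowest in replicate 7. Eno1 read 13.25, 13.27, 13.17, 13.39, 13.31 and 13.31 (13.29 ± 0.074), lowest in replicate 5 and highest in replicate 6. The pair thus shared neither their highest nor their lowest array.

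Pgk1, which makes the first ATP of the pathway, was 12.76 ± 0.056, with 12.65 in replicate 7 as its lowest value and 12.80 in replicate 5 as its highest. Ldha, which regenerates NAD+ by making lactate, was 13.44 ± 0.041 and spanned only 1.07-fold. Its SD was at the 21.8th percentile of its quartile of level and the lowest of the 10, but not without replicate 7, where it was 0.037. Without that array the SDs of Pgk1, Aldoa and Pfkl fell to 0.023, 0.020 and 0.032.

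Seen by array, 5 of the 10 enzymes were highest in replicate 2 (Hk1, Hk2, Pfkp, Aldoc and Eno2), against 11.8% of genes above background. Of the 10, 7 were lowest in replicate 7, against 17.9% of genes, and the other 3 (Hk1, Hk2 and Eno1) were lowest in replicate 5. The mean of the 10 enzymes was 11.43 ± 0.066 and ran from 11.34 in replicate 7 to 11.53 in replicate 2.

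**Figure D1:**
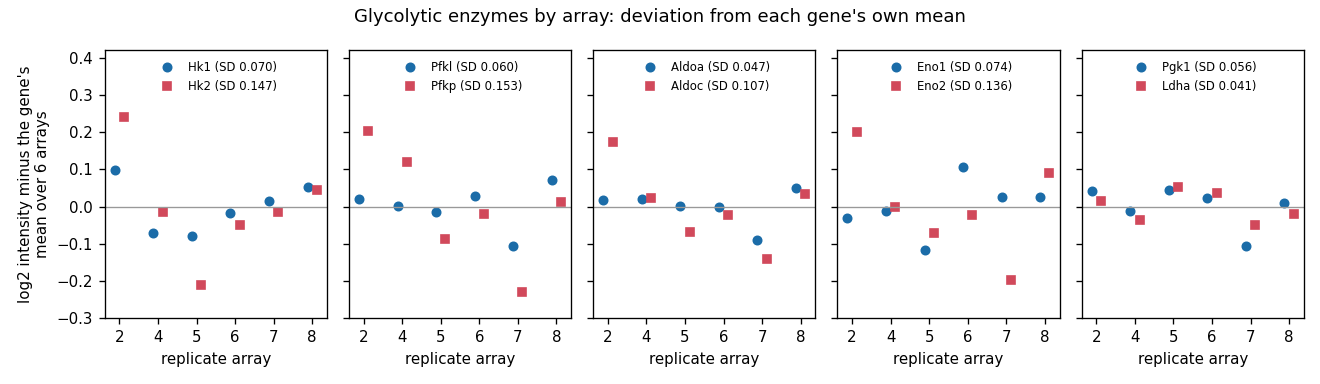
Log2 intensity of each enzyme minus its own mean over the 6 arrays (vertical axis) by replicate (horizontal axis), 1 panel per isozyme pair and 1 for Pgk1 and Ldha. Points are single arrays and the legend gives each SD. Hk2, Pfkp, Aldoc and Eno2 (squares) spread further than Hk1, Pfkl, Aldoa and Eno1 (circles), with replicate 2 the highest of each.

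The balance within each isozyme pair was followed as the log2 difference between its isozymes in the same array, which removes whatever an array adds to both. All 4 differences were lowest in replicate 2, that is, Hk2, Pfkp, Aldoc and Eno2 gained most on their partners there. The share of all gene pairs with that lowest array was not computed. Each of these genes was itself highest in replicate 2, and Pfkp, Aldoc and Eno2 moved together. The 4 differences are therefore not separate observations. Eno1 minus Eno2 moved furthest, from 2.23 in replicate 2 to 2.68 in replicate 7 (2.46 ± 0.16), a 1.37-fold change in the ratio. An SD this large was found in 10.1% of all gene pairs in the top quartile of level and in 27.2% of all pairs above background.

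Pfkl minus Pfkp was -0.39 ± 0.12 and ran from -0.57 in replicate 2 to -0.27 in replicate 7, 1.24-fold in the ratio. Hk1 minus Hk2 was -0.35 ± 0.092 and ran from -0.49 in replicate 2 to -0.22 in replicate 5, 1.21-fold. Aldoa minus Aldoc was 2.93 ± 0.082 and ran from 2.77 in replicate 2 to 3.00 in replicate 5, 1.17-fold. SDs as large as these were found in 23.2%, 43.9% and 54.2% of the pairs in the top quartile of level, and in 46.6%, 67.3% and 75.2% of all pairs above background. Hk1 and Hk2 lay below the top quartile, so the hexokinase and aldolase balances moved no more than that of a typical pair. Without replicate 2 the SD of Aldoa minus Aldoc was 0.029. The means of these differences depend on the probes and say nothing of which isozyme was more abundant.

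The SD of Hk2 was 2.09 times that of Hk1, the SD of Pfkp 2.56 times that of Pfkl, the SD of Aldoc 2.28 times that of Aldoa and the SD of Eno2 1.84 times that of Eno1. The order held in 4 of 4 pairs after leaving out any 1 array and after both rescalings of the arrays. The size of the ratio rested on single arrays for aldolase, where it was 1.38 without replicate 2 and 4.55 without replicate 7, and for enolase, where it was 2.77 without replicate 5. SD also fell with signal, from a median of 0.111 in the lowest quartile of level to 0.058 in the highest. Aldoc (10.06) and Eno2 (10.83) gave less signal than Aldoa (12.99) and Eno1 (13.29). For the other pairs, Hk2 (9.84) and Pfkp (10.99) gave more than Hk1 (9.49) and Pfkl (10.60). The difference between these SDs, and the part of signal level in it, was not tested.

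**Figure D2:**
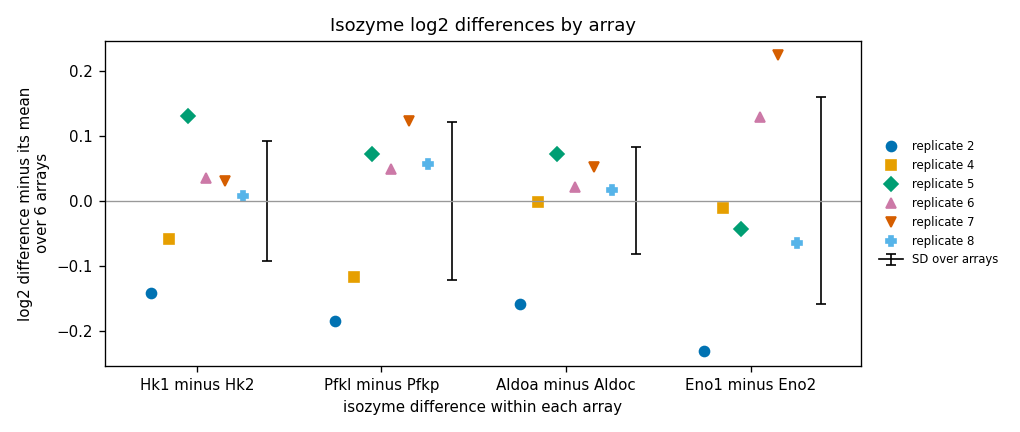
Log2 difference within each isozyme pair minus its mean over the 6 arrays (vertical axis), for the 4 pairs (horizontal axis). Each symbol is 1 array and each bar is 1 SD to either side of the mean. Replicate 2 is the lowest array of each pair, and enolase has the widest spread, with an SD of 0.16.

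Covariation was measured as Pearson's r over the 6 arrays, with an exact two-sided permutation test over the 720 orders of the arrays, whose smallest p is 0.00139. The family for the Benjamini-Hochberg adjustment was every pair of 1 of the 10 enzymes with a gene above background, 127875 pairs. Of these, 5384 (4.21%) had an exact p under 0.05 and 0 an adjusted p under 0.05, the lowest being 0.950 for r and 0.698 for Spearman's rho. Each relation below is therefore a description of these 6 arrays that did not pass the adjusted test. With this smallest p and so many pairs, no single relation could have passed, however close it was. Not passing therefore says nothing for or against a relation.

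Of the 45 pairs among the 10 enzymes, 37 had r above 0 and 8 below, with a median r of 0.36, which was 0.61 without replicate 4, 0.67 after median centring and 0.64 after quantile normalization. An r of at least 0.8 was found for 5 pairs (11.1%), against 5.19% of all pairs of genes above background and 4.69% of pairs in the top quartile of level. No pair of enzymes had an r of -0.8 or less, against 4.63% of all pairs. The count of 5 rose to between 8 and 12 when any 1 array was left out, where 6.63% to 8.46% of all pairs reached the limit, and to 12 after centring each array on its median, where 7.66% did.

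Only 4 of the 45 pairs were isozymes of 1 step, so most pairs joined different steps, and the strongest relations did too. Aldoc and Eno2 had r = 0.98 and rho = 1, the same order on all 6 arrays (exact permutation p = 0.0042 and 0.0028, adjusted p = 0.965 and 0.698). Without replicates 2 and 7, the arrays farthest from the median of Aldoc, r was 0.87. Of 12792 genes above background, Aldoc ranked 6th by r with Eno2, and Eno2 7th by r with Aldoc.

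Pfkp moved with both. With Aldoc it had r = 0.95 and rho = 0.94 (exact permutation p = 0.0083 and 0.017, adjusted p = 0.965 and 0.764), and r was 0.82 without replicates 2 and 7. With Eno2 it had r = 0.90 and rho = 0.94 (exact permutation p = 0.021 and 0.017, adjusted p = 0.965 and 0.764). Here r dropped to 0.44 without replicates 2 and 7, so the relation of Pfkp with Eno2 rested largely on those arrays.

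Pfkl and Aldoa, the widely used forms of the adjacent steps, had r = 0.94 but rho = 0.60 (exact permutation p = 0.019 and 0.24, adjusted p = 0.965 and 0.834). Without replicates 7 and 8 the r was -0.13, so this relation rested on those arrays. Pgk1 and Ldha had r = 0.80, just under the limit, and rho = 0.94 (exact permutation p = 0.022 and 0.017, adjusted p = 0.965 and 0.764), with r = 0.68 without replicates 4 and 7.

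Among the isozyme pairs themselves, only the hexokinases reached r = 0.8. Hk1 and Hk2 had r = 0.87 and rho = 0.94 (exact permutation p = 0.013 and 0.017, adjusted p = 0.965 and 0.764), and r = 0.60 without replicates 2 and 5. Aldoa and Aldoc had r = 0.69 and rho = 0.77 (exact permutation p = 0.15 and 0.10, adjusted p = 0.965 and 0.764), r = 0.64 without replicates 7 and 8, and between 0.33 and 0.93 with any 1 array left out.

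Pfkl and Pfkp had r = 0.67 and rho = 0.54 (exact permutation p = 0.14 and 0.30, adjusted p = 0.965 and 0.858), which was 0.39 without replicates 7 and 8 and 0.059 without replicate 7. Eno1 and Eno2 had r = -0.06 and rho = -0.26 (exact permutation p = 0.93 and 0.66, adjusted p = 0.995 and 0.946), and r = -0.64 without replicates 5 and 6. The sign of that r turned to 0.18 after median centring and to 0.048 after quantile normalization, so no direction can be given for the enolases.

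After the mean of the 10 enzymes was subtracted from each array, r was 0.87 for Aldoc with Eno2, 0.88 for Pfkp with Aldoc, 0.73 for Pfkp with Eno2, 0.88 for Pfkl with Aldoa and 0.89 for Pgk1 with Ldha. For Hk1 with Hk2 it was 0.47, and for the other isozyme pairs it was below 0, at -0.39 for Pfkl with Pfkp, -0.63 for Aldoa with Aldoc and -0.82 for Eno1 with Eno2. Subtracting the mean of 10 genes lowers r between them by construction.

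**Figure D3:**
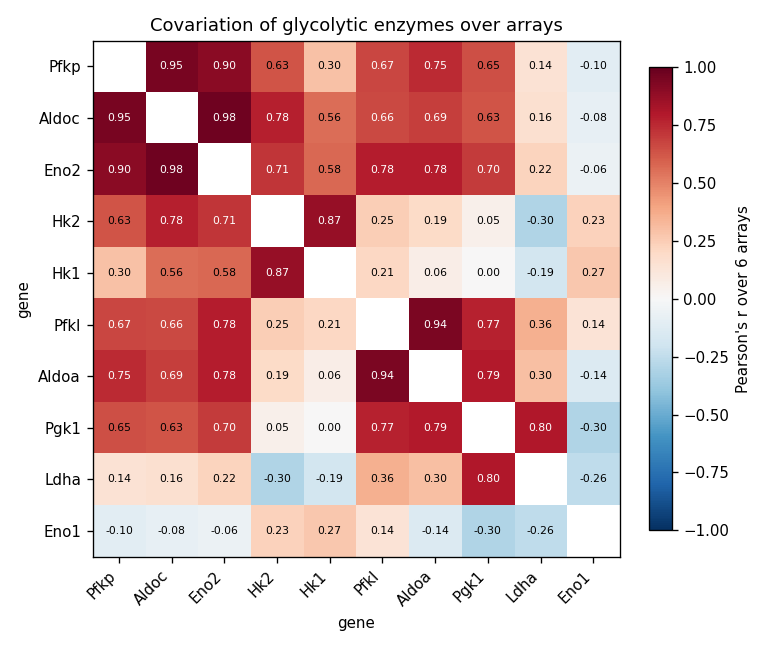
Pearson's r over the 6 arrays for each pair of the 10 enzymes (both axes), on a colour scale from -1 to 1 with the value in each cell. Pfkp, Aldoc and Eno2 form a block with r of 0.90 to 0.98, Pfkl and Aldoa have 0.94, and the row of Eno1 holds no r above 0.27.

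The genes nearest to each enzyme by r, of 12792 genes above background, were not other enzymes of the set. They were Hpca, Lancl2 and Ankrd29 for Hk1, Cox6a1, Dipk1a and Pcsk2 for Hk2, Tnfsf9, Hmgxb3 and Atp23 for Pfkl, and Chmp2a, Dync1li2 and Bcap31 for Pfkp. For Aldoa they were Rap2b, D16Ertd472e and Jmjd1c, for Aldoc Galk2, Bcap31 and Rnmt, and for Pgk1 Smad1, Ak4 and Zcchc18. For Eno1 they were Nap1l1, Fam193b and Atp1b1, for Eno2 Pla2g15, Grhpr and Cdh5, and for Ldha Mrpl44, Slc25a2 and Cxcr1. Their r was 0.96 or higher, and since they were picked as the highest of many no test was read from them. Bcap31 stood among the nearest for both Pfkp and Aldoc. Mrpl44, Slc25a2, Atp23, Galk2, Cdh5, Cxcr1 and Tnfsf9 were dim, with means from 7.49 to 7.77, near the background limit of 7.47.

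The rest of the pathway was examined as a list. Of 20 other glycolytic enzymes, 12 were above background, among them Gpi1 (13.28 ± 0.053), Tpi1 (12.65 ± 0.030), Gapdh (13.40 ± 0.053), Pgam1 (12.34 ± 0.11) and Pkm (12.94 ± 0.036). With the mean of the 10 enzymes, 0 of the 12 reached r = 0.8, which at 2.61% of genes above background is near the share over all genes. Their median r with it was 0.061, and the highest were those of Gpi1 (0.78) and Tpi1 (0.70). Single enzymes did reach it with single members.

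Gpi1, which makes the substrate of phosphofructokinase, had r = 0.96 and rho = 0.83 with Aldoa (exact permutation p = 0.011 and 0.058, adjusted p = 0.965), and r = 0.83 without replicates 7 and 8. Pfkm, the muscle phosphofructokinase, had r = 0.93 and rho = 0.83 with Hk2 (exact permutation p = 0.043 and 0.058, adjusted p = 0.965), but -0.08 without replicates 2 and 5. Ldhb, the lactate dehydrogenase form of heart and neurons, went against Ldha with r = -0.87 and rho = -0.94 (exact permutation p = 0.014 and 0.017, adjusted p = 0.965), and r = -0.68 without replicates 5 and 7. Gapdh had r = 0.80, just under the limit, and rho = 0.71 with Eno1 (exact permutation p = 0.042 and 0.14, adjusted p = 0.965 and 0.776), and r = 0.92 without replicates 5 and 6. With the other 9 enzymes its r lay between -0.43 for Pfkp and 0.21 for Pfkl.

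Single regulators around the pathway kept the order of Aldoc and Eno2, although the 5 regulators of fructose bisphosphates had a median r of only 0.22 with Aldoc and 0.0057 with Eno2. Pfkfb3, which makes fructose 2,6-bisphosphate, the strongest activator of phosphofructokinase, read 10.41, 10.18, 10.07, 10.10, 10.03 and 10.25 in replicates 2, 4, 5, 6, 7 and 8. It had the same order of arrays as Eno2 and Aldoc (rho = 1 with each, exact permutation p = 0.0028). Its r was 0.96 with Eno2 and 0.97 with Aldoc (exact permutation p = 0.0014, adjusted p = 0.950), and 0.96 and 0.94 without replicates 2 and 7.

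Pdk1, the kinase that switches off pyruvate dehydrogenase, read 10.24, 10.03, 9.97, 10.003, 9.96 and 10.16 and also kept that order. It had r = 0.94 with Eno2 and 0.91 with Aldoc (exact permutation p = 0.0014, adjusted p = 0.950), and 0.99 and 0.79 without replicates 2 and 7. Dlat, a subunit of pyruvate dehydrogenase itself, had r = 0.97 with Eno2 (rho = 1, exact permutation p = 0.0042, adjusted p = 0.965), and 0.97 without those arrays. Pdp2, a phosphatase that switches the enzyme back on, went the other way, with r = -0.89 with Eno2 (rho = -0.89, exact permutation p = 0.017 and 0.033, adjusted p = 0.965), and -0.89 without those arrays. Pdp2 was dim, with a mean of 7.67 near the background limit of 7.47. Of all pairs of genes above background, 4.63% had an r of -0.8 or less. Pdk3, a related kinase, followed Pfkl instead, with r = 0.99 and rho = 1 (exact permutation p = 0.0014, adjusted p = 0.950), and 0.93 without replicates 7 and 8.

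As counts, 1 of 5 regulators of fructose bisphosphates reached r = 0.8 with Eno2, as did 2 of 11 genes of pyruvate entry into mitochondria and 2 of 9 glucose and lactate transporters, against 3.07% of genes. The glucose transporters Slc2a1 (12.75 ± 0.075) and Slc2a3 (11.10 ± 0.18) were those that did. With Pgk1 they had r = 0.90 and 0.88 (exact permutation p = 0.049 and 0.028, adjusted p = 0.965; rho = 0.49 and 0.77), falling to -0.12 and 0.51 without replicates 4 and 7. The relation of Slc2a1 with Pgk1 therefore rested on those arrays.

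The HIF list was the one that moved most like Pfkp, Aldoc and Eno2. It held 18 known HIF targets outside glycolysis, of which 16 were above background, with a mean of 10.30 ± 0.066 that ran from 10.20 in replicate 7 to 10.41 in replicate 2. Its mean reached r = 0.8 with 3 of the 10 enzymes, Eno2, Aldoc and Pfkp, against 1.78% of genes above background. A hypoxia list was known from earlier results to be coherent on these arrays, so this list is not independent evidence.

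With Eno2 the HIF-target mean had r = 0.96 and rho = 0.94 (exact permutation p = 0.0069 and 0.017, adjusted p = 0.447 and 0.603), and 0.79 without replicates 2 and 7. With Aldoc it had r = 0.96 and rho = 0.94 (exact permutation p = 0.011 and 0.017, adjusted p = 0.460 and 0.603), and 0.66 without those arrays. With Pfkp it had r = 0.90 and rho = 0.83 (exact permutation p = 0.028 and 0.058, adjusted p = 0.521 and 0.678), and 0.27 without them, so that relation rested on those arrays. Over the alternatives tried, r with Eno2 ran from 0.93 to 0.99.

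The other enzymes ran lower against the HIF-target mean, with r = 0.78 for Pgk1, 0.72 for Pfkl, 0.71 for Aldoa, 0.66 for Hk2, 0.51 for Hk1, 0.41 for Ldha and -0.07 for Eno1. Ldha, whose promoter printed above held 7 of the HIF-type motifs, was thus among the enzymes least like the HIF targets, and Eno2, whose window held 0, among the most. The difference between these r was not tested.

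By gene, 6 of the 16 HIF targets reached r = 0.8 with Eno2, against 3.07% of genes, 5 with Aldoc (2.98%), 5 with Pfkp (3.8%) and 5 with Pfkl (2.45%). Aldoa (4.57%) and Pgk1 (1.27%) had 3 each, Hk2 (2.85%) had 1, and Hk1 (2.26%), Eno1 (2.81%) and Ldha (1.32%) had 0. The targets nearest to Eno2 were Kdm3a, a histone demethylase, with r = 0.96 (rho = 0.83, exact permutation p = 0.0083 and 0.058, adjusted p = 0.965), and Mxi1, an antagonist of Myc, with r = 0.95. Without replicates 2 and 7 the r of Kdm3a was 0.83. Mxi1 kept the same order of arrays as Eno2 (rho = 1, exact permutation p = 0.0028, adjusted p = 0.698), and its r was 0.95 without replicates 2 and 7. Ak4, an adenylate kinase of mitochondria, was nearest to Pgk1 with r = 0.98 and rho = 0.71 (exact permutation p = 0.011 and 0.14, adjusted p = 0.965), and 0.51 without replicates 4 and 7.

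Of 9 genes listed as HIF pathway regulators, Myc and Mycn among them, 2 reached r = 0.8 with Aldoc (2.98% of genes) and 2 with Pfkp (3.8%). With Hk2 (2.85%) 1 did, and with Eno2 (3.07%) 0. An r of -0.8 or less was found for Epas1 with Aldoa (-0.91) and Pfkl (-0.83), and for Hif1an with Eno1 (-0.91). Hif1a stayed at 11.25 ± 0.021 and had r = 0.020 with the mean of the 10 enzymes. Its partner Arnt had r = 0.94 and rho = 0.89 with Pfkp (exact permutation p = 0.011 and 0.033, adjusted p = 0.965), and 0.85 without replicates 2 and 7. Egln1, the oxygen-sensing hydroxylase that marks HIF for degradation, had r = 0.88 and rho = 0.77 with Aldoc (exact permutation p = 0.025 and 0.10, adjusted p = 0.965), and 0.67 without those arrays. With Pfkp it had r = 0.87 and rho = 0.89 (exact permutation p = 0.029 and 0.033, adjusted p = 0.965), and 0.76 without them.

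**Figure D4:**
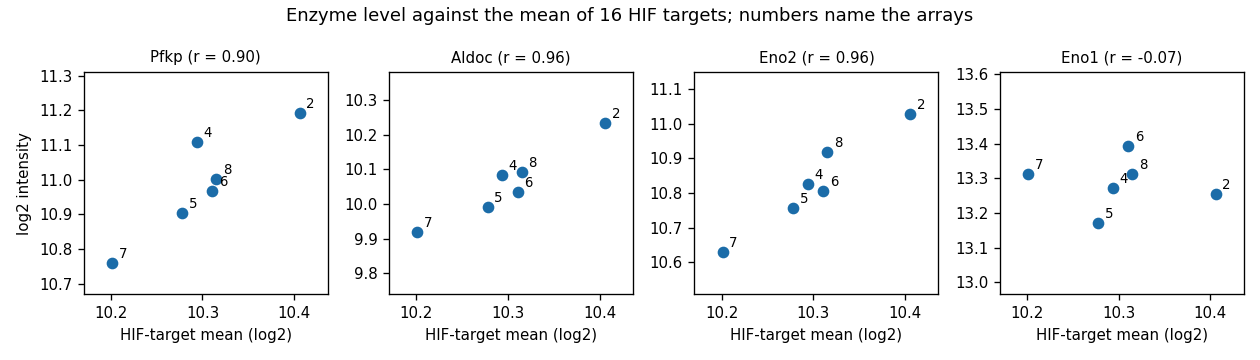
Log2 intensity of Pfkp, Aldoc, Eno2 and Eno1 (vertical axes, each spanning the same width) against the mean log2 intensity of 16 HIF targets outside glycolysis (horizontal axes). Each point is 1 array, labelled by its replicate number. Replicate 2 is at the upper right and replicate 7 at the lower left for the first 3 genes, with r of 0.90, 0.96 and 0.96, while Eno1 shows no slope (r = -0.07).

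Against the means of 15 lists, the 10 enzymes gave 150 relations, of which 13 (8.67%) had an exact p under 0.05. Over all genes above background and lists the share was 8.47% of 191759 relations, so the enzymes had such relations about as often as other genes. None passed the adjusted test, where the lowest p was 0.427 and which again no single relation could have passed. Beside the HIF targets, the transporter mean had r = 0.88 and rho = 0.77 with Ldha (exact permutation p = 0.022 and 0.10, adjusted p = 0.503 and 0.745), and 0.87 without replicates 5 and 8. Of all genes, 3.29% reached 0.8 with this list. By gene, 0 of the 9 transporters reached 0.8 with Ldha, with a median r of 0.38 and a highest of 0.58.

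Several marker lists had negative r with 1 or more of the enzymes, though with different ones for each list. The mean of 7 proliferation markers, 10.41 ± 0.027, was lowest in replicate 2 (10.37) and highest in replicate 7 (10.45). It had r = -0.96 with Pfkp (rho = -0.83, exact permutation p = 0.0083, adjusted p = 0.450), -0.88 with Aldoc (rho = -0.66, exact permutation p = 0.025, adjusted p = 0.510) and -0.80 with Eno2 (rho = -0.66, exact permutation p = 0.050, adjusted p = 0.578). Of all genes above background, 2.68% had an r of -0.8 or less with it. Without replicates 2 and 7 the r was -0.79 with Pfkp, -0.35 with Aldoc and 0.13 with Eno2, so the relations with Aldoc and Eno2 rested on those arrays. On all 6 arrays the single markers had r with Pfkp from -0.71 for Plk1 to -0.11 for Cdk1, so none came near that of their mean.

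The mean of the 5 endoderm and mesoderm markers above background had r = -0.90 with Aldoa (rho = -0.94, exact permutation p = 0.0028, adjusted p = 0.427), and -0.96 without replicates 7 and 8. It had -0.82 with Eno2 (rho = -0.89, exact permutation p = 0.043, adjusted p = 0.559) and -0.80 with Pfkl (rho = -0.66, exact permutation p = 0.044, adjusted p = 0.563), and 8.04% of genes had -0.8 or less. Without replicates 7 and 8 these were -0.69 and 0.12. The 5 markers were dim, with means from 7.85 for Gata4 to 8.64 for Col1a1. On all 6 arrays their single r with Aldoa ran from -0.80 for Gata4 to -0.47 for Col1a1. The mean of the 9 neural progenitor markers above background had -0.85 with Hk1 (rho = -0.83, exact permutation p = 0.043, adjusted p = 0.559) and -0.80 with Hk2 (rho = -0.94, exact permutation p = 0.032, adjusted p = 0.531). These were -0.30 and -0.29 without replicates 2 and 8, and 3.97% of genes had -0.8 or less with this list. The single markers did not all follow. With Hk1 they ran from -0.84 for Olig2 to 0.056 for Nes, and with Hk2 from -0.91 for Sox3 to 0.19 for Sox2. The mean of the 4 astrocyte markers above background had -0.85 with Eno2 (rho = -0.89, exact permutation p = 0.026, adjusted p = 0.516), and -0.67 without replicates 2 and 8. With this list 6.59% of genes had -0.8 or less. Its members did not go 1 way, since Slc1a2, the brightest at 9.57, had r = 0.77 with Eno2. Gfap (7.55), S100b (7.81) and Aldh1l1 (7.81), near the background limit of 7.47, had -0.67, -0.61 and -0.35.

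The mean of the neuron markers had r between -0.38 and 0.70 with the 10 enzymes, and that of the motor neuron markers between -0.28 and 0.28. Single markers went further, and in both directions. Chat had r = 0.85 with Eno2, Isl2 -0.88 with Aldoc, Lhx3 0.89 with Ldha and Nefm 0.83 with Hk1. Eno2, the neuron-specific enolase, had r = 0.01 with the neuron marker mean, which was 12.13 ± 0.063. The dimmest signal also differed between arrays, with a lower quartile of intensity of 109 in replicate 8 and 121 to 129 elsewhere. Over the 6 arrays the median of the olfactory receptor genes had r = -0.78 with Eno2, -0.68 with Aldoc, -0.69 with Hk1, -0.66 with Pfkl and Aldoa, -0.64 with Hk2 and -0.53 with Pfkp. The part of these markers and of this background level in the relations above was not tested.

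**Figure D5:**
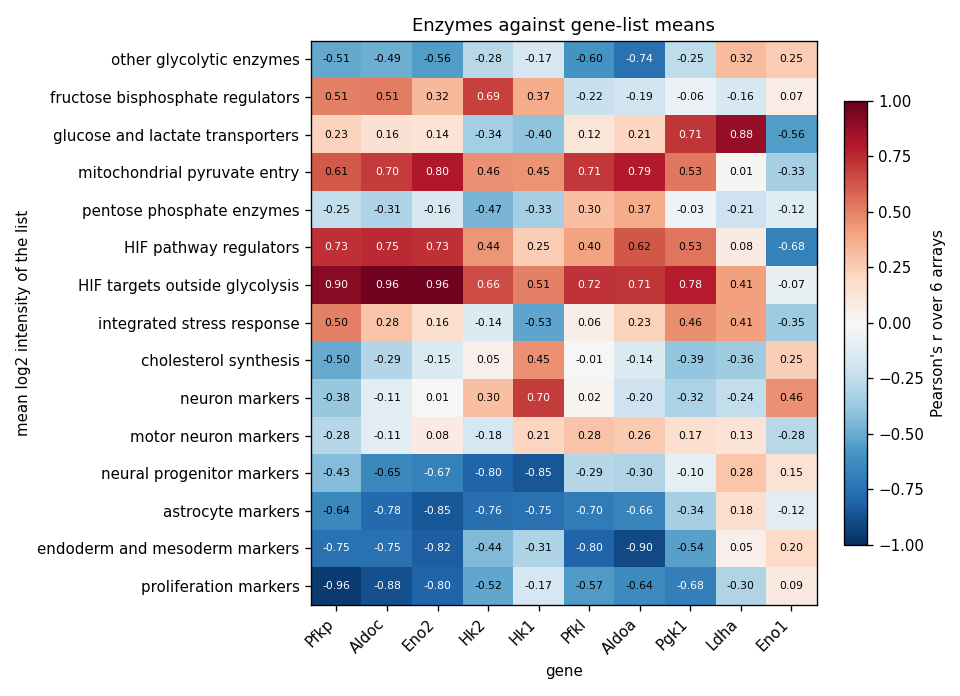
Pearson's r over the 6 arrays of each enzyme (horizontal axis) with the mean log2 intensity of each of 15 gene lists (vertical axis), on a colour scale from -1 to 1 with the value in each cell. HIF targets have the highest r with Pfkp, Aldoc and Eno2 (0.90 to 0.96), and proliferation markers the lowest with Pfkp (-0.96) and Aldoc (-0.88).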

How the data were processed

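The 6 arrays of 1 group were Affymetrix exon arrays for mouse. The authors deposited 1 linear intensity per gene and array. Per the study's methods these come from Robust Multi-array Averaging in Aroma Affymetrix, as the mean over the exons of a gene, and the submitters' processing notes name Affymetrix Expression Console and RMA. Which arrays were normalized together, the genome build and whether outlying arrays had been removed from this group are not given in the sources used here, so the SDs may describe a screened set.

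Intensities were taken as log2 with no pseudocount, and 12793 genes above background were used. Names were matched to RefSeq's gene table (17539 symbols, 1785 synonyms, 289 unmatched), and the table held 0 columns of other samples. The 10 enzymes and the 17 gene lists, including the HIF list, were chosen with earlier results of these data known. List genes without a match (Slc16a7, Pdp1, Pgls, Ero1l, Hmgcs1, Syt1, Slc18a3, Slc1a3, Gja1 and Hba-a1) were not analysed here. Named genes were the 10 enzymes, genes of the metabolic and HIF lists above background, and the 3 genes nearest to each enzyme by r. Lists with fewer than 3 genes above background were not related to the enzymes. Pearson's r and Spearman's rho over arrays had exact two-sided permutation p-values and Benjamini-Hochberg adjustment over the whole table, and r was recomputed after dropping the 2 arrays that lay farthest from the middle value of the first gene or list. The calculation was tested on simulated data. Alternatives were median centring and quantile normalization of the arrays, linear intensity, other background limits, no filter and leaving out each array. Python 3.11.15, numpy 2.4.6, pandas 2.3.3 and scipy 1.17.1 were used. The precision is limited by the number of arrays, which have no read depth.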

Additional observations from a re-analysis of the deposited data

Results flagged for a closer look

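The levels of 10 enzymes, 4 isozyme differences, the mean of the enzymes and the 15 list means, 30 sets of 6 values in all, were screened for 1 outlying array by Dixon's ratio, the gap to the nearest array over the whole range, at its 95% critical value. Chance passes about 1 set in 20, so 1.5 of 30 would be expected, and 3 passed. Aldoa was low in replicate 7, at 12.90. Pgk1 was also low in replicate 7, at 12.65. The difference Aldoa minus Aldoc was low in replicate 2, at 2.77.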

How the results depend on the processing

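All 10 enzymes stayed above background under each alternative, and no relation of an enzyme passed an adjusted p of 0.05 under any. With so few arrays no single relation could have passed, so this does not show that the results are stable. The correlation of Eno1 with Eno2 changed sign, to 0.18 with median centring, 0.048 with quantile normalization and 0.44 without replicates 2 and 7 together, and ran from -0.42 to 0.13 with 1 array left out. With the mean of the 10 enzymes subtracted from each array, the r of Pfkl with Pfkp was -0.39, that of Aldoa with Aldoc -0.63 and the median r of the 45 pairs -0.26. This alternative and the removal of replicates 2 and 7 together were chosen after seeing the data. The number of enzyme pairs with r of at least 0.8 was 12 with median centring, when 7.66% of all gene pairs reached it, 8 to 12 with 1 array left out and 10 without replicates 2 and 7 together, when 12.5% of all gene pairs reached it. With fewer arrays any pair reaches a high r more often. No paired analysis was possible because the arrays form 1 group.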
